A study of Mus musculus with 10 samples.

Results

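The genes described here are 54 genes of the cell cycle and of DNA replication, taken by name from a list that covers G1 cyclins, replication factors and mitotic regulators. They were followed in mRNA sequencing of 10 mouse tumors, and the table lists 21959 genes in all. For the comparison of G1/S with G2/M genes they were grouped by textbook role into 5 G1 cyclins and kinases, 24 genes of the G1/S transition and DNA replication, and 25 genes of G2 and mitosis. The tumors grew from 4T1 cells, a transplantable mammary carcinoma line of BALB/c origin, placed under the abdominal skin of female BALB/c mice that were 5 to 6 weeks old when obtained. Voluntary wheel running was the condition that separated the groups of 5 mice each. Mice of the exercise group (E) ran as fast and as far as they chose, and those of the non-exercise group (NE) were housed without this intervention. Both groups carried the same cell line as subcutaneous tumors, which is not the mammary gland itself, and all tumors were taken at 21 days. Counted reads per tumor numbered 20646763, 18645694, 20611941, 18548988 and 15045613 in E1 to E5, and 23092251, 18706032, 22723771, 22947178 and 21388798 in NE1 to NE5. The E libraries were shallower on average, with an exact two-sided permutation p of 0.0317 for the total, and counts were scaled to CPM, which relates each count to the library total and a TMM factor for composition.

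A cell enters the cycle when D-type cyclins, bound to Cdk4 or Cdk6, release E2F factors from the retinoblastoma protein, after which E2F targets such as cyclin E and the MCM helicase are made and DNA is copied. In G2, cyclin A and cyclin B with Cdk1 take over, and the MuvB complex with B-Myb and Foxm1 drives the genes of the spindle, the kinetochore and chromosome segregation. The level of these transcripts in a tumor is widely used as a measure of its proliferating fraction, but in RNA from whole tissue fewer cycling cells and less RNA per cycling cell cannot be told apart. Of the markers expected in mammary carcinoma cells, several were near 0 in these tumors. Krt8 had 0 to 27 reads, Krt18 2 to 48, Krt7 1 to 21, Cldn4 0 to 7 and Epcam 10 to 66, while Krt19 had 157 to 498 and Cdh1 144 to 434. Krt14 had at most 13 reads in every tumor but NE5, where it had 1140. The labelled mammary cancer tissue was therefore one with few keratin transcripts, and the cells that carry the cycling transcripts were not identified by these markers.

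None of the members was called between the groups. The rule for calling a gene asked for an FDR of 0.05 or less together with a 2-fold or larger change, with the FDR from the quasi-likelihood test of edgeR, adjusted after Benjamini and Hochberg over the 13517 genes with enough counts to be tested. By this rule 0 of the 53 members tested were called, beside 0 (0%) of all genes tested, and DESeq2, edgeR's exact test and limma-trend likewise called 0 members. An unadjusted p of at most 0.05 was reached by 1 member, E2f8, which is 1.89% of the members tested, beside 657 genes or 4.86% of all. In 0 members did the 5 E values and the 5 NE values lie apart without overlap, beside 98 genes or 0.725% of all. The adjusted p of the members by edgeR was 0.897 or more. The count of members with an unadjusted p of at most 0.05 depended on single tumors. It was 8 of 53 without NE1, beside 9.9% of all genes in the same fit, and 5 without E4, beside 4.04%. It was 2 without E2 (beside 3.58%), without E3 (5.67%) and without NE4 (4.7%), and 1 without each of the other tumors. The 8 members without NE1 were Bub1, Cdk2, Cenpf, E2f8, Gmnn, Kif11, Top2a and Ttk, and their smallest adjusted p in that fit was 0.473.

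**Figure D1:**
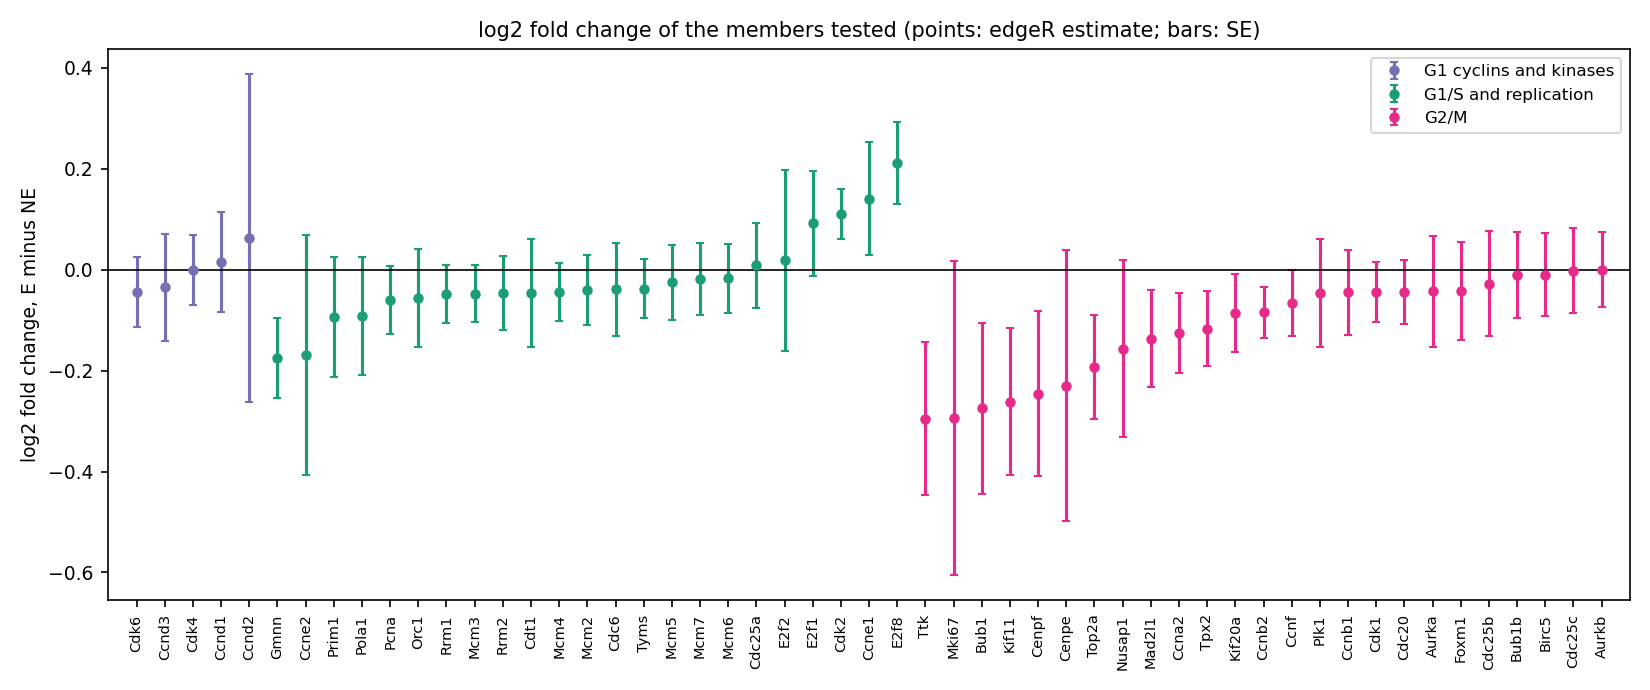
log2 fold change (E minus NE) of the 53 members tested, with points for the edgeR estimate and bars for its SE, ordered within each class. The values run from -0.30 (Ttk) to 0.21 (E2f8), and the class medians are 0.00 (G1 cyclins and kinases), -0.04 (G1/S and replication) and -0.08 (G2/M).

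In both groups the members were expressed at widely differing levels, and together they made up 0.548% to 0.640% of the counted reads of a tumor. Levels were compared between genes as FPKM, which is scaled by gene length and total count. The lengths are the deposited ones, and they can differ from the exon bases of the mouse GRCm38 annotation. Comparisons of FPKM between genes depend on them. The highest mean FPKM over the 10 tumors were those of Cdk4 at 87.6 ± 7.5 (SD, n = 10), Ccnd1 at 85.6 ± 10.3 and Rrm2 at 83.9 ± 5.7, whose SDs overlap, followed by Mcm6 at 81.3, Ccnb2 at 76.1, Pcna at 69.4, Cdc20 at 66.1 and Top2a at 61.0. The median member of the G2/M class stood at 21.5 FPKM, that of the G1/S and replication class at 13.8 and that of the G1 class at 9.51. Low levels were seen for Cenpf at 2.45 FPKM, Orc1 at 3.53, E2f2 at 3.57, Cenpe at 3.81, Cdc25c at 4.08 and Ccnd2 at 4.11. Fen1, the flap endonuclease that trims Okazaki fragments, was lowest with 5 to 12 reads in each tumor and 0.17 FPKM, and it was the 1 member that did not pass the filter on low counts. Fen1 was kept in the DESeq2 fit and in the fit without a filter on low counts, and it was called in neither. What difference such low counts could have shown was not tested. The gene starts in the table equal those of the GRCm38 annotation for 0 of the 54 members, so that exon overlaps read from it may not be those used in counting. In the GRCm38 annotation Fen1 shares 130 of its 2422 exon bases (5.37%) with Tmem258 on the other strand, which had 735 to 1162 reads. The strand setting of the counting is not given in the sources used here. Of the 54 members, 12 share exon bases with another counted gene in that annotation, 11 of them with a gene on the opposite strand, and 7 over more than 10% of their exon bases, namely Ccna2, Ccnd1, Ccnd3, Ccne2, Cdk4, Kif20a and Mcm7. Their counts may hold or lack reads of the partner.

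Among the G1 cyclins and kinases, which couple growth signals to the cycle, no member had a fold change larger than its SE. Ccnd1, the D-type cyclin most often raised in mammary tumors, stood at 513, 400.2, 393, 374 and 346 CPM in E1 to E5 and at 428, 388, 416, 372 and 402 CPM in NE1 to NE5. E1 was highest and E5 lowest of all tumors, so that the E values enclosed the NE values, and the log2 fold change was 0.01 with an SE of 0.10. Per length, Ccnd1 made up 85.3% to 91.4% of the FPKM of the D-type cyclins, Ccnd3 5.70% to 7.76% and Ccnd2 1.58% to 6.91%. These shares depend on the deposited lengths, 4709 bases for Ccnd1 and 8775 for Ccnd3. The GRCm38 exon bases were 3740 and 2447, with which the share of Ccnd3 would be larger. Ccnd2 varied most, with 40.1, 42.3, 24.3, 40.7 and 50.6 CPM in E1 to E5 against 14.8, 30.7, 48.8, 60.2 and 35.2 CPM in NE1 to NE5. Both extremes lay in the NE group, NE1 being lowest and NE4 highest, and the log2 fold change was 0.06 with an SE of 0.32. With each tumor left out in turn it ran from -0.13 without NE1 to 0.30 without NE4. NE1 and NE4 were also the tumors with the lowest and the highest signal of skeletal muscle genes, given further on. Cdk4, the catalytic partner of the D-type cyclins, was the steadiest of this class, at 303, 287, 276, 273 and 283 CPM in the E tumors and 323, 291, 282, 248 and 277 CPM in the NE tumors. Its group means of 284 ± 12 (SD, n = 5) and 284 ± 27 CPM were the same. The FPKM of Cdk4 was 8.54 to 10.3 times that of Cdk6, with deposited lengths of 3249 and 13989 bases. The mean CPM of Cdk6 was 131 in E and 135 in NE. Cdk6 and Ccnd3 had log2 fold changes of -0.04 and -0.03.

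At the G1/S transition, cyclin E with Cdk2 starts replication and is itself made under E2F control. Ccne1 was at 23.6, 17.4, 17.2, 15.7 and 17.2 CPM in E1 to E5 and at 16.0, 16.0, 17.5, 17.2 and 15.9 CPM in NE1 to NE5. Without E1, which stood apart from the other tumors, its log2 fold change of 0.14 (SE 0.11) was 0.04. Ccne2, the second E-type cyclin, had 10.8, 16.9, 25.7, 22.5 and 14.3 CPM in the E tumors and 14.6, 23.1, 25.4, 17.5 and 20.8 CPM in the NE tumors. The tumor with the most Ccne1, E1, had the least Ccne2, and the ratio of their FPKM ran from 0.88 in E3 to 2.87 in E1, with overlapping groups. Cdk2 stood at 91.5, 85.7, 90.1, 89.98 and 89.4 CPM in E1 to E5 and at 90.4, 85.2, 81.7, 77.2 and 79.4 CPM in NE1 to NE5. The E values were close to each other, NE1 lay among them, and 4 of the 5 NE values lay below every E value. Its log2 fold change was 0.11 with an SE of 0.05 and an adjusted p of 0.897 by edgeR.

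The E2F factors of the list were an activator pair and an atypical repressor. E2f8, the repressor that acts late in S phase, had the largest positive log2 fold change of all members, 0.21 with an SE of 0.08 and an adjusted p of 0.897 by edgeR. It stood at 92.0, 79.3, 70.2, 78.6 and 78.5 CPM in E1 to E5 and at 64.7, 75.2, 71.7, 60.9 and 71.8 CPM in NE1 to NE5. In 4 E tumors E2f8 was above every NE tumor, while E3 lay below NE2, NE3 and NE5, and the group means were 79.7 ± 7.8 and 68.9 ± 5.9 CPM (SD, n = 5 each). E2f1, the activator that marks release from the retinoblastoma protein, was at 40.6, 32.2, 36.9, 34.5 and 35.9 CPM in the E tumors and 40.4, 33.4, 33.5, 27.2 and 34.5 CPM in the NE tumors. NE4 was lowest and E1 and NE1 highest, and the log2 fold change was 0.09 with an SE of 0.10, or 0.02 without NE4, 0.05 without E1 and 0.18 without NE1. E2f2 varied more between tumors than any other tested member of its class except Ccne2, with an SD of 0.28 on the log2 scale, and its log2 fold change was 0.02. Its nearest companion across the 10 tumors was Ccnd2, with a Pearson r of 0.91 and a Spearman rho of 0.81. Cdc25a, the phosphatase that activates Cdk2, had a log2 fold change of 0.01.

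Licensing of replication origins loads the MCM helicase with the help of Orc1, Cdc6 and Cdt1, and geminin (Gmnn) blocks Cdt1 after S phase has begun. The 6 helicase subunits had log2 fold changes from -0.05 (Mcm3) to -0.02 (Mcm6), none larger than its SE. Mcm2 stood at 134, 117, 109.7, 115 and 122 CPM in the E tumors and at 133, 123, 128, 122 and 109 CPM in the NE tumors. Mcm6, the most abundant subunit, stood at 378, 385, 384, 394 and 343 CPM in the E tumors and at 426, 388, 387, 339 and 367 CPM in the NE tumors. Both extremes of Mcm6, as of Mcm2, differed by less than 1.3-fold, and the groups overlapped. Although the subunits form a ring with equal shares of each, their FPKM differed by a factor of 4.15 to 5.21 within a tumor. That factor depends on the deposited lengths, such as 6956 bases for Mcm2 and 3589 for Mcm4. In mean CPM Mcm2 and Mcm4 were closer, at 120 and 135 in E and 123 and 140 in NE. By FPKM Mcm6 was highest in all 10 tumors, followed by Mcm3 and Mcm7, and Mcm2 was lowest. Mcm4 and Mcm5 changed places in FPKM, with Mcm5 above Mcm4 in E1, E2, E5, NE1 and NE4 and below it in the other 5 tumors. In CPM Mcm5 was above Mcm4 in every tumor.

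Gmnn had the lowest log2 fold change of the G1/S and replication class, -0.18 with an SE of 0.08 and an adjusted p of 0.897 by edgeR. Its CPM were 30.6, 32.4, 36.2, 33.7 and 27.5 in E1 to E5 and 33.8, 39.2, 35.9, 37.0 and 35.4 in NE1 to NE5. The 3 lowest values were those of E5, E1 and E2, while E3 was above NE1, NE3 and NE5. Its target Cdt1 had a log2 fold change of -0.05, Cdc6 of -0.04 and Orc1 of -0.06. Among the genes of the fork and of nucleotide supply, Pcna, the sliding clamp of the polymerases, was at 169, 158, 165, 182 and 142 CPM in the E tumors and at 166, 174, 178, 162 and 169.6 CPM in the NE tumors. E5 was lowest and E4 highest, both in the E group, and the log2 fold change was -0.06 with an SE of 0.07. Rrm2, the regulated subunit of ribonucleotide reductase, had 3.70 to 4.45 times the FPKM of Rrm1, and their log2 fold changes were -0.05 each. The FPKM ratio rests mostly on the deposited lengths, 2771 bases for Rrm2 and 11012 for Rrm1. Their mean CPM were close, at 229 and 221 in E and 236 and 229 in NE. Tyms, which makes thymidylate, was the steadiest of all members, with 33.2, 37.8, 33.0, 36.4 and 34.8 CPM in E and 35.0, 36.9, 37.2, 35.4 and 35.2 CPM in NE. Its SD over the 10 tumors was 0.06 on the log2 scale, beside a median of 0.18 over all genes tested. The polymerase alpha and primase genes Pola1 and Prim1 each had a log2 fold change of -0.09, with an SE of 0.12.

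In the G2/M class the engine of mitosis, Cdk1 with its cyclins, was even across tumors. Cdk1 had 175, 164, 153, 168 and 149 CPM in E1 to E5 and 176, 174, 167, 158 and 160.0 CPM in NE1 to NE5. Ccnb1, cyclin B1, had 138, 136, 124, 143 and 110.1 CPM in the E tumors and 126, 152, 141, 128 and 125 CPM in the NE tumors. The ranges overlapped for both, with E5 lowest in each, and the log2 fold changes were -0.05 (SE 0.06) for Cdk1 and -0.05 (SE 0.08) for Ccnb1. Ccnb2 was the steadiest of the class, with 117, 116, 107, 120.1 and 106 CPM in E and 124, 122, 122, 116 and 115 CPM in NE, a log2 fold change of -0.08 and an SE of 0.05. Ccna2, cyclin A2, stood at 162, 155, 134, 175 and 143 CPM in E and at 152, 185, 172, 164 and 165 CPM in NE, with a log2 fold change of -0.13 and an SE of 0.08. In all 4 genes the 2 lowest values were those of E3 and E5, and the highest was in NE1 or NE2. Set against Cdk2, the kinase that precedes it, Cdk1 showed groups apart from each other. The ratio of the FPKM of Cdk1 to that of Cdk2 was 2.42, 2.42, 2.14, 2.35 and 2.10 in E1 to E5 and 2.46, 2.58, 2.57, 2.57 and 2.54 in NE1 to NE5. This was the only one of 12 ratios between members with no overlap, it was picked out after its values were seen, and it has no test.

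Foxm1, the transcription factor of the mitotic genes, was at 139, 139.9, 102, 118 and 112 CPM in E and at 142, 128, 115, 119.8 and 124 CPM in NE. E1, E2 and NE1 were high and E3 was low, and the log2 fold change was -0.04 with an SE of 0.10. Apart from Bub1 and Ttk, given below, the mitotic kinases and their partners were as close. Aurkb, the kinase of the chromosomal passenger complex, had 97.0, 92.9, 77.2, 88.3 and 77.0 CPM in E and 93.3, 88.7, 86.5, 81.9 and 82.1 CPM in NE, equal group means of 86.5 and a log2 fold change of 0.00. Plk1, Aurka, Birc5 (survivin), Cdc25b, Cdc25c and Bub1b had log2 fold changes between -0.05 and 0.00, each smaller than its SE. Plk1 and Aurka were lowest in E3, at 45.3 and 74.2 CPM. Cdc20, which activates the anaphase-promoting complex, and Ccnf had -0.04 and -0.07, and the spindle genes Kif20a and Tpx2 -0.09 and -0.12. Mad2l1 of the spindle checkpoint had -0.14 with an SE of 0.10.

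A further set of G2/M genes was less even and had the lowest fold changes. Mki67, which coats mitotic chromosomes and marks proliferating cells in pathology, stood at 36.4, 81.8, 67.2, 92.0 and 82.2 CPM in E1 to E5 and at 37.3, 114, 90.1, 84.2 and 115 CPM in NE1 to NE5. One tumor of each group, E1 and NE1, had less than any other, at 761 and 879 reads beside 1262 to 2429 in the other 8, and the span from lowest to highest was 3.17-fold. The log2 fold change of -0.29 had an SE of 0.31 and lay between -0.55 and -0.12 over 19 alternatives of the fit. Cenpe, the kinesin of the kinetochore, followed a similar order at 17.4, 34.5, 27.0, 41.0 and 31.8 CPM in E and 18.3, 43.9, 40.3, 31.5 and 43.8 CPM in NE. E1 and NE1 were again the lowest, and the Pearson r of Cenpe with Mki67 was 0.98 (Spearman rho 0.94, n = 10 tumors). Cenpf had 25.5, 36.5, 36.1, 43.6 and 31.5 CPM in E and 28.9, 48.5, 43.3, 39.6 and 45.2 CPM in NE, with an r of 0.91 with Mki67. Its log2 fold change was -0.25 with an SE of 0.16, and -0.15 without E1.

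Top2a, the topoisomerase that untangles sister chromatids, had 499.5, 541, 522, 583 and 424 CPM in the E tumors and 492, 659, 639.6, 540.0 and 606 CPM in the NE tumors. The highest 3 values were in the NE group and the lowest was in E5, while NE1 lay below 4 of the E tumors, and the log2 fold change was -0.19 with an SE of 0.10. Bub1, a kinase of the spindle checkpoint, ran in parallel at 40.5, 53.2, 57.6, 61.5 and 39.3 CPM in E and 45.6, 76.5, 70.4, 52.8 and 60.2 CPM in NE. Ttk, the kinase that starts that checkpoint, had the lowest log2 fold change of all members, -0.30 with an SE of 0.15 and an adjusted p of 0.897 by edgeR. Its CPM were 18.9, 21.2, 24.5, 26.4 and 17.3 in E and 21.1, 33.5, 28.6, 23.1 and 26.8 in NE. For Bub1 and Ttk alike E5 was lowest and NE2 highest, and E4 exceeded NE1 and NE4. Kif11, the motor that separates the spindle poles, and Nusap1 had -0.26 (SE 0.15) and -0.16 (SE 0.18). These genes were tightly linked across the 10 tumors, with a Pearson r of 0.98 for Bub1 with Kif11, 0.98 for Bub1 with Ttk and 0.97 for Top2a with Mad2l1.

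**Figure D2:**
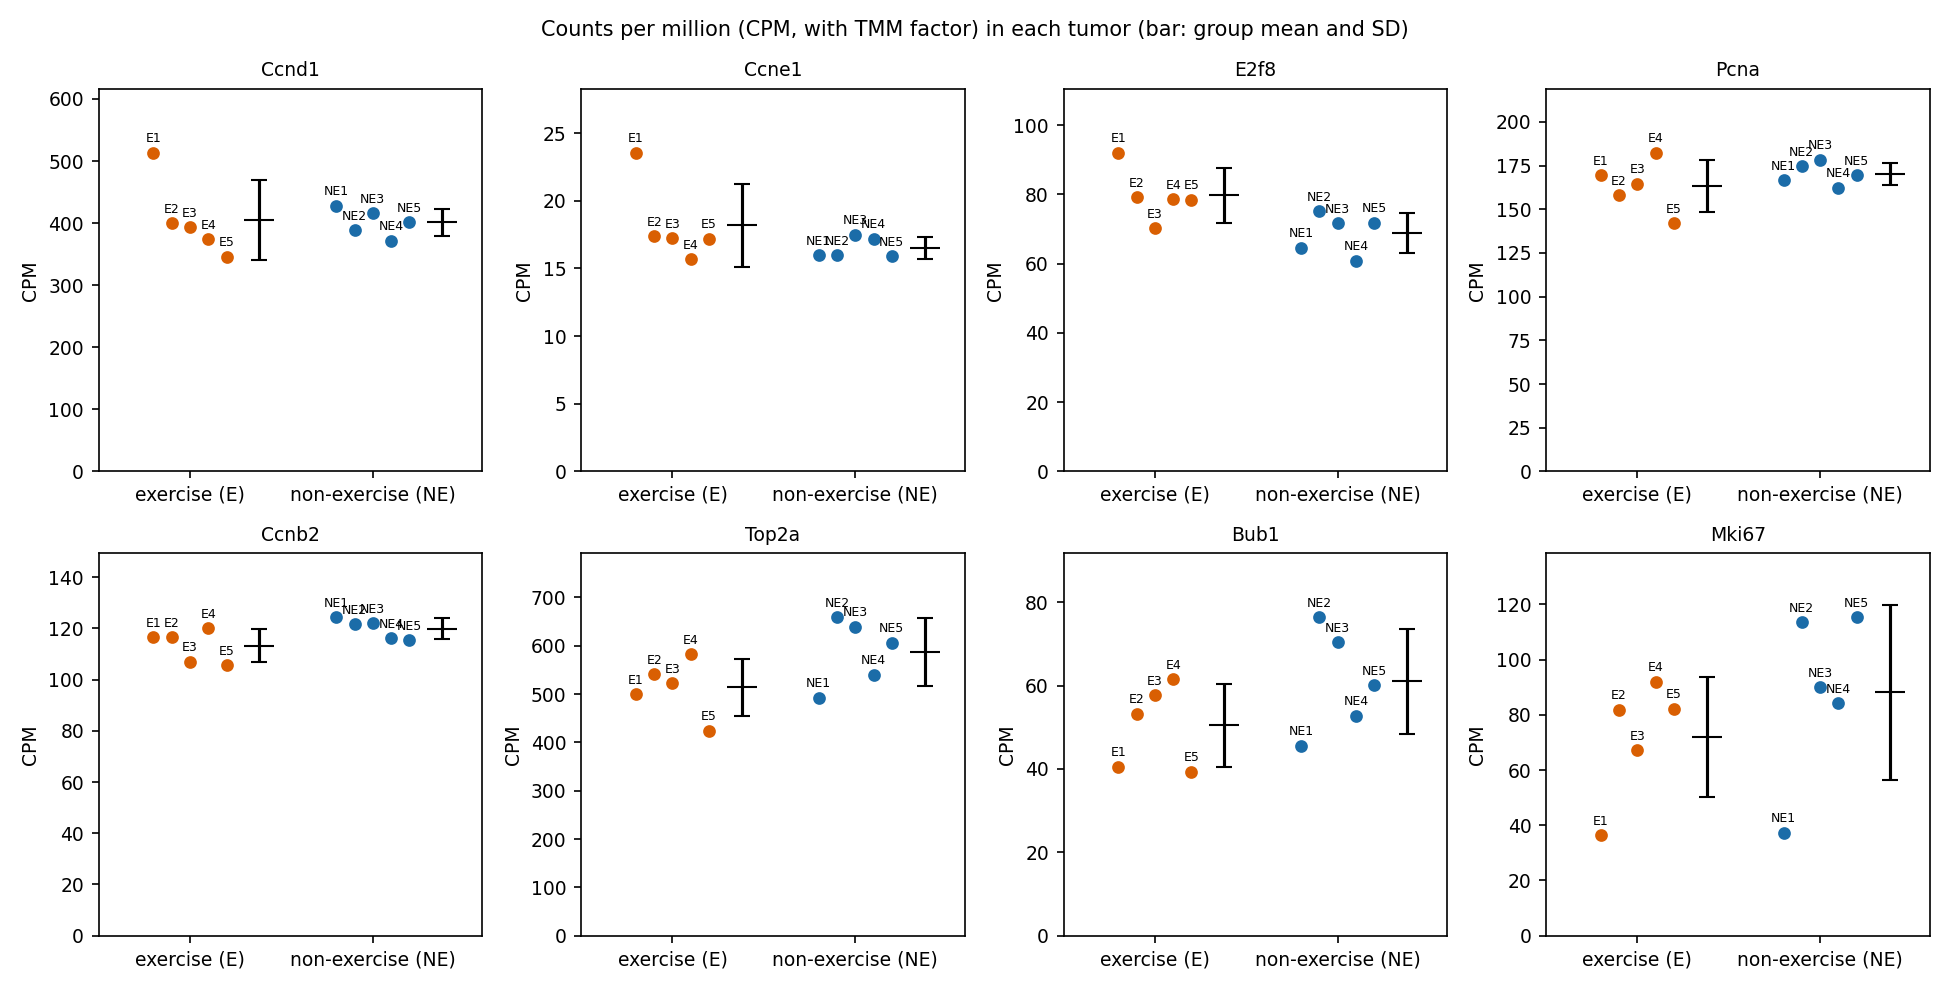
CPM (linear axes from 0) of 8 members in each of the 5 E and 5 NE tumors, with bars for the group mean and SD. Ccnb2 and Pcna are even, E1 is high for Ccne1 (23.6 CPM), and Mki67 is low in E1 (36.4 CPM) and NE1 (37.3 CPM).

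The comparison of G1/S with G2/M genes asked whether 1 phase was shifted against the other. A class was given a level in each tumor, the average log2(CPM + 1) of its members. For the 24 G1/S and replication genes it was 5.96, 5.89, 5.90, 5.97 and 5.82 in E1 to E5 and 5.92, 5.97, 5.96, 5.88 and 5.91 in NE1 to NE5. All 10 tumors lay within 0.15 of each other, and the group means of 5.91 ± 0.06 and 5.93 ± 0.04 (SD, n = 5 each) differed by -0.02. The level of the 25 G2/M genes was 6.26, 6.40, 6.23, 6.48 and 6.18 in E1 to E5 and 6.28, 6.5997, 6.49, 6.34 and 6.42 in NE1 to NE5. Its range of 0.42 was wider, with E5, E3 and E1 lowest and NE2 highest, and the group means of 6.31 ± 0.12 and 6.43 ± 0.12 differed by -0.11, which is less than 1 SD. The G2/M level minus the G1/S and replication level was 0.30, 0.51, 0.33, 0.51 and 0.36 in the E tumors and 0.36, 0.63, 0.52, 0.46 and 0.52 in the NE tumors. The means of 0.40 ± 0.10 and 0.50 ± 0.10 differed by -0.09, again less than 1 SD, and NE1 lay among the low E tumors. The difference was negative in each of the 10 fits with 1 tumor left out, from -0.13 without NE1 to -0.06 without NE2. Since the members were chosen with results of these data known, the score has no p.

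**Figure D3:**
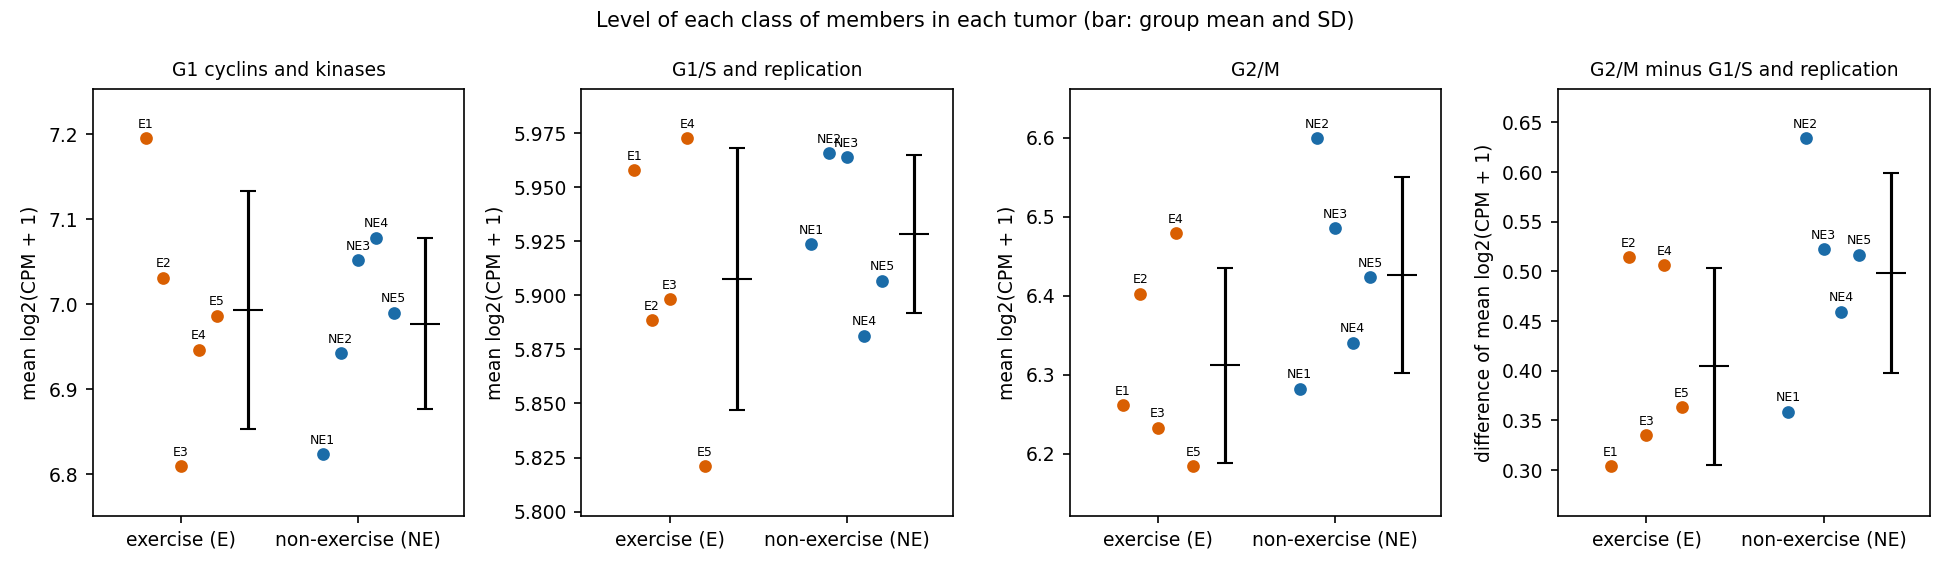
Mean log2(CPM + 1) of the 5 G1 cyclins and kinases, the 24 G1/S and replication genes and the 25 G2/M genes, and the G2/M level minus the G1/S and replication level, in each tumor (points), with bars for the group mean and SD. Each axis covers its own narrow range, and the groups overlap in every panel.

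Counted gene by gene, 24 of 25 G2/M members, 17 of 23 tested G1/S and replication members and 3 of 5 G1 members had a negative log2 fold change, beside 7296 or 54% of all genes tested. The median log2 fold change was -0.08 for the G2/M class, -0.04 for the G1/S and replication class and 0.00 for the G1 class, beside -0.01 for all genes. The G2/M members are not independent of each other, since many of them rise and fall together from tumor to tumor. The count of 24 is therefore not that of 24 separate observations. It depended on the scaling and on single tumors. With library size alone in place of TMM 20 of 25 G2/M members were lower in E, beside 45% of all genes, and without E3 17 were, beside 54.8%. In 11 of the 25 G2/M members the fold change was larger than its SE, and in 0 it reached 2 SE, beside 4 and 3 of the 23 G1/S and replication members. Over all genes tested these shares were 37.8% and 7.38%.

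Across the 10 tumors the median Pearson r over the 300 pairs of G2/M members was 0.59, with 171 pairs above 0.5 and 18.3% below 0. For the 253 pairs within the G1/S and replication class it was 0.18, with 58 pairs above 0.5 and 36.8% below 0, and for the 575 pairs between the classes it was 0.26. With the trend on GC content and length described below removed, the medians within the 2 classes were 0.68 and 0.52. Some of the closest pairs crossed the classes, such as Kif11 with Pola1 (r 0.94, rho 0.88), Mad2l1 with Mcm4 (r 0.94, rho 0.90) and Cdk1 with Mcm3 (r 0.93, rho 0.96). In the G1/S and replication class Cdt1 went with Mcm5 (r 0.93, rho 0.90), while Cdc25a was opposed to Ccne2 (r -0.81, rho -0.66). Mki67 was opposed to Cdt1 (r -0.76, rho -0.26) and Mcm5 (r -0.75, rho -0.31) in a set in which E1 and NE1 had far less Mki67 than the other tumors. These values are descriptions over 10 tumors that share the library type and differ in depth.

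In 9 of the 10 tumors the members' levels were related to the base composition of their transcripts. GC content was taken from the longest annotated transcript (GENCODE, GRCm38) and ran from 36.3% in Ccne2 to 58.3% in E2f1. In each tumor the members' deviations from their 10-tumor means were set against it. Across the 53 members Spearman's rho was 0.73, 0.44, -0.50, -0.73 and 0.49 in E1 to E5 and 0.70, -0.65, -0.73, 0.01 and -0.59 in NE1 to NE5. Over 13487 genes with a GC content the same rho was 0.50, 0.26, -0.36, -0.33 and 0.25 in E1 to E5 and 0.32, -0.40, -0.40, 0.09 and -0.33 in NE1 to NE5, so that members and all genes had the same sign in every tumor. These are values across genes, which are not independent. The 14 members under 45% GC were Bub1, Ttk, Kif11, Nusap1, Cenpe, Cenpf, Top2a, Mad2l1, Pola1, Prim1, Ccne2, Ccnb1, Cdc25c and Rrm1. They deviated by -0.32 on average in E1, -0.28 in E5 and -0.21 in NE1, and by 0.30 in NE2 and 0.22 in NE3. The 20 members above 50% GC deviated by 0.19 in E1 and 0.09 in NE1, and by -0.16 in E3. By FPKM Mcm5 exceeded Mcm4 in the same 5 tumors in which rho was positive, and their GC contents were 51.9% and 45.5%. The 10 members of the G2/M class and 4 of the G1/S and replication class that lay under 45% GC had a median log2 fold change of -0.16, against -0.03 for the members above 50%, and over all genes the medians below and above these limits were -0.06 and 0.01. Between GC content and log2 fold change rho was 0.59 across the members, beside 0.19 over all genes. A linear trend on GC content and log2 length, fitted to genes outside the members, was removed in each tumor. It may leave part of the members' own, stronger relation in place. The G2/M level minus the G1/S and replication level then differed by -0.09 between the groups. The median r of pairs within the G1/S and replication class was 0.52 in place of 0.18. That within the G2/M class was 0.68 in place of 0.59, and that between the classes 0.48 in place of 0.26. Why GC content and level went together was not tested.

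**Figure D4:**
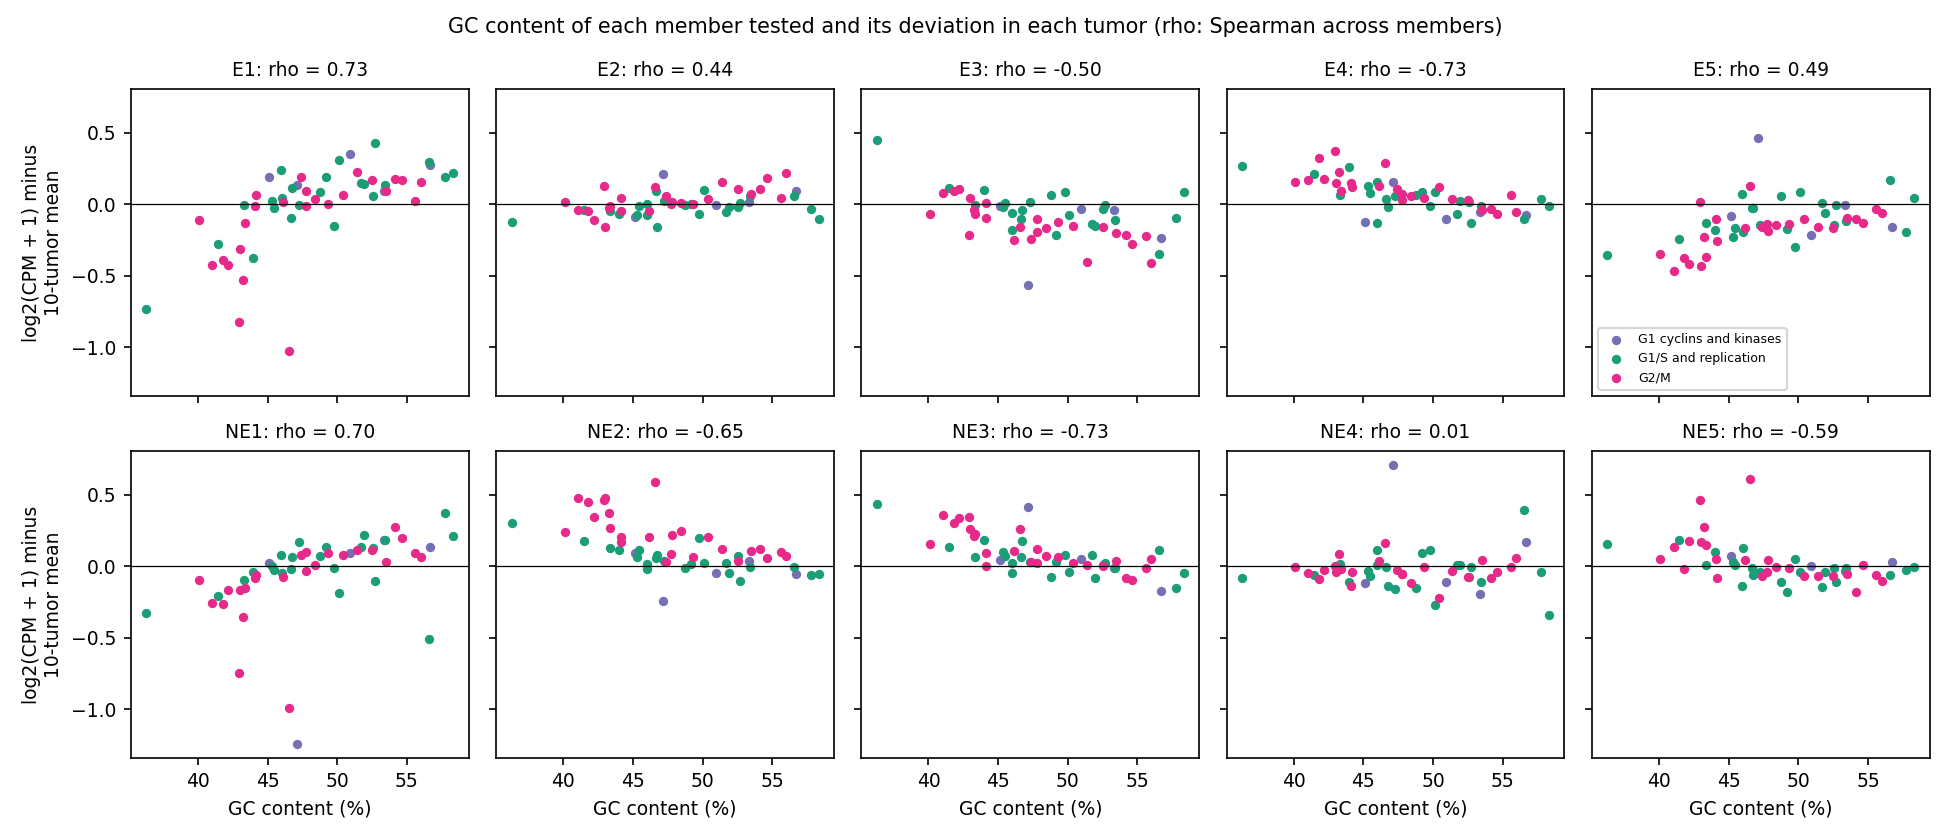
GC content (percent) of the longest transcript of each of the 53 members tested, on the x axis, and its deviation of log2(CPM + 1) from its own 10-tumor mean, on the y axis, in each tumor, with colors for the classes. The slope is positive in E1 (rho 0.73) and NE1 (rho 0.70) and negative in E4 and NE3 (rho -0.73 each).

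From lowest to highest tumor, the summed markers of muscle, fibroblasts, neutrophils, adipocytes, B cells and the epithelial list differed by a larger factor than any member. The sums for macrophages or monocytes, endothelial cells and T or NK cells did not. Single markers could differ from their list, such as Pdgfra of the fibroblast list with 1257 to 2016 reads and Cd4 of the T or NK list with 46 to 361. Of the 12 skeletal muscle markers 11 passed the filter, none was at 0 in every tumor, and their summed level, as CPM without TMM, was 1258, 3953, 287, 518 and 468 in E1 to E5 and 8.57, 864, 1564, 26036 and 123 in NE1 to NE5. The muscle gene with the most reads was Acta1 in 8 tumors, Myh4 in NE4 and Mylpf in NE1. Fibroblast markers, led by Col3a1, ran from 1007 in NE1 to 15774 in E5, macrophage or monocyte markers, led by C1qb, from 606 in NE1 to 2304 in E5, and neutrophil markers from 11.9 in NE1 to 293 in E5. For the other lists the range was 112.7 to 224 for endothelial cells, 186 to 364 for T or NK cells, 0.996 to 5.76 for B cells, 8.62 to 109.6 for adipocytes and 20.9 to 101 for the epithelial list. In none of the 9 lists was a difference between the groups detected, with exact two-sided permutation p from 0.135 to 0.976. After Benjamini-Hochberg adjustment over the 9 lists these ran from 0.884 to 0.976. The means were 1297 in E and 5719 in NE for muscle, 78.7 and 28.5 for neutrophils and 6061 and 2893 for fibroblasts. Single tumors carried these gaps. NE4 had 26036 for muscle, beside at most 1564 in the other NE tumors. E5 had 293 for neutrophils and 15774 for fibroblasts, beside at most 32.4 and 5116 in the other E tumors. Across the 10 tumors the muscle score had a Pearson r of 0.17 (rho 0.27) with the G2/M level and of -0.10 (rho -0.08) with the G1/S and replication level. The endothelial score had an r of -0.77 (rho -0.54) and the neutrophil score of -0.69 (rho -0.36) with the G1/S and replication level, which was lowest in E5. With the same level the fibroblast score had an r of -0.55 (rho -0.47) and the macrophage or monocyte score of -0.34 (rho -0.49). For the T or NK cell score it was 0.30 (rho 0.20). The part of these cell types in the members' levels was not tested. With the muscle score as a covariate the median log2 fold change of the G2/M class was -0.08, as without it.

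Of 49 further genes of G1/S and replication, 0 were called, 0 had an unadjusted p of at most 0.05, 40 had a negative log2 fold change, beside 54% of all genes, and the median was -0.04. Hells, a chromatin remodeler of replicating cells, had the smallest p, with a log2 fold change of -0.26 (SE 0.12). Of 55 further genes of G2 and mitosis, 0 were called, 49 had a negative log2 fold change, the median was -0.10, and 2 had an unadjusted p of at most 0.05, Cks2 and Anln, both lower in E. That is a smaller share than the 4.86% over all genes. Cks2, a small subunit of the cyclin-dependent kinases, stood at 46.0, 40.4, 44.0, 46.1 and 36.8 CPM in E1 to E5 and at 49.6, 50.8, 49.5, 44.95 and 47.3 CPM in NE1 to NE5. E1 and E4 exceeded NE4, and the log2 fold change was -0.18 with an SE of 0.07 and an adjusted p of 0.897 by edgeR. Anln, the scaffold of the contractile ring, had -0.22 with an SE of 0.09. With these other lists in place of the members, the G2/M level minus the G1/S and replication level differed by -0.05 between the groups.

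The brakes of the cycle were described from a list of 22 inhibitors and pocket proteins, of which 20 were tested, 0 called, and 10 lay on each side of 0 with a median of -0.02. Ccng1, a target of p53, had the smallest p and varied most between NE tumors, with 195, 235, 205, 235 and 208 CPM in E and 161, 314, 333, 478 and 246 CPM in NE. NE4 was highest and NE1 lowest, so that the NE values enclosed the E values, and the log2 fold change was -0.51 with an SE of 0.23 and an adjusted p of 0.897 by edgeR. Cdkn1a, another p53 target, had 86.5 to 153 CPM and a log2 fold change of -0.08, and Cdkn1b had 93.4 to 125 CPM and -0.04. Cdkn2a had 0 to 8 reads and Cdkn2b 3 to 20 reads per tumor, and neither passed the filter. Rb1, which the D-type cyclin kinases phosphorylate, had a log2 fold change of 0.11 with an SE of 0.13. Of 15 genes of checkpoint and repair 0 were called, 13 had a negative log2 fold change, beside 54% of all genes, and the median was -0.10. Fancd2, of the interstrand crosslink repair pathway, had the smallest p among them, with -0.14 and an SE of 0.07.

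Since the classes differ in how their genes are driven, their promoters were searched for the motifs of these factors. Promoters of 300 bases, from 250 bases before to 50 bases after the start, were available from RefSeq (GRCm38.p6) for 43 members, 4 of them with 2 windows. No entry was found for Aurkb, Ccna2, Ccnd1, Ccnd2, Ccne2, Cdc25c, Foxm1, Gmnn, Kif20a, Mcm4 and Tpx2. The E2F motif TTTGGCGC, with either G or C at each of its positions 4 and 5, on either strand, was in 11 of 24 windows (45.8%) of the G1/S and replication class and 1 of 19 (5.26%) of the G2/M class, beside 2.26% of all 32851 promoters. The CHR motifs TTTGAA and TTCGAA, on either strand, the element that MuvB binds, were in 14 of 19 G2/M windows (73.7%) and 5 of 24 G1/S and replication windows (20.8%), beside 19.2% of all promoters. The CCAAT box, CCAAT on either strand, was in 84.2% and 70.8% of the windows of these classes, beside 37.4% of all. A CHR and a CCAAT box together were in 14 G2/M windows (73.7%), 16.7% of the G1/S and replication windows and 7.52% of all. The other G2/M list held a CHR motif in 69.1% of its windows and the other G1/S and replication list an E2F motif in 26.1%. A match is a description of the letters and not a measured binding site.

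The stretch of 120 bases before the RefSeq start is shown for the members in which E2F motifs fell in it, to let the replication promoters be read beside the mitotic ones. They were 3 genes, Mcm6 (chr1:128359706-128359825, reverse strand), Cdc25a (chr9:109875459-109875578, forward strand) and Orc1 (chr4:108579334-108579453, forward strand). The stretch ends at the first GENCODE transcript start in Cdc25a and Orc1, and 41 bases before it in Mcm6, whose RefSeq start is not a GENCODE one. Capitals mark E2F motifs and CCAAT boxes, and overlapping motifs run together.
Mcm6: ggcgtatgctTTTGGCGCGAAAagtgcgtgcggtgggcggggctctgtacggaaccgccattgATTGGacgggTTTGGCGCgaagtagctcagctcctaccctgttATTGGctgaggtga
Cdc25a: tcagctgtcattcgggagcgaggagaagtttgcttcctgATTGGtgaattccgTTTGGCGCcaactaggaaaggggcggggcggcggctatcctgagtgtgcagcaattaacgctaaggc
Orc1: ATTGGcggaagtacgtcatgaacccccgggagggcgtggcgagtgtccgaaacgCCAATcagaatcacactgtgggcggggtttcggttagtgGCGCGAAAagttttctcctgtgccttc

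The same stretch of 2 of the 6 mitotic members with a CHR motif in it, chosen as core genes described above with their values, is given for Top2a (chr11:99024190-99024309, reverse strand) and Mki67 (chr7:135716380-135716499, reverse strand). Cdk1, another core gene with CHR motifs there, is left out because its stretch runs 26 bases into a GENCODE transcript. The stretch ends at the first GENCODE transcript start in Top2a and 18 bases before it in Mki67. Capitals mark CHR motifs and CCAAT boxes.
Top2a: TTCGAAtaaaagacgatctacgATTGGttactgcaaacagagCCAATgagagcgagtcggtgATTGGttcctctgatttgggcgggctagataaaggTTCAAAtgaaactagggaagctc
Mki67: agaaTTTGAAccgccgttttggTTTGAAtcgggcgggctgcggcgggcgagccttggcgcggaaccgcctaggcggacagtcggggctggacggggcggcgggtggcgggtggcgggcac
The stretch of Top2a held 2 CHR motifs and 3 CCAAT boxes, and that of Mki67 2 CHR motifs and 0 CCAAT boxes. Between the lowest and the highest tumor the CPM of these genes differed 1.56-fold for Top2a and 3.17-fold for Mki67.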

How the data were processed

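mRNA libraries of 10 tumors, 5 per group and 1 per mouse by the study's methods, were compared, with groups and replicate numbers from the sample labels. The authors aligned reads with Hisat2, computed expression with Stringtie and deposited a table of whole-number read counts and FPKM per gene. The methods name a rat reference genome for the mapping, while the table has mouse gene identifiers. How the counts were made, and the build of the table, are not given in the sources used here. The deposited counts are not normalized. Dividing a count by gene length and by the library total gives the deposited FPKM, so that these contain no TMM factor. Members, classes and lists were chosen with earlier results of these data known.

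The fit over all genes used filterByExpr, TMM, glmQLFit and glmQLFTest of edgeR 4.0.16 under R 4.3.3. A log2 fold change above 0 means more in E. Alternatives were DESeq2 1.42.0, edgeR's exact test, limma-trend 3.58.1, other scaling and filters, the replicate block, a muscle score as covariate and tumors left out. GC and length adjustment, the other lists for the class levels and DESeq2 without a fold limit were added after seeing the data. Single values were tested by exact permutation in Python 3.11.15. CPM include the TMM factor, and marker sums do not.

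Genes named by rule were 11 core genes, in each class the 3 highest and the lowest FPKM, the extremes of fold change and of SD over tumors, members with an unadjusted p of at most 0.05, and the smallest p of each other list. Further members were named after their values were seen. No 2 libraries agreed within sampling noise. Tumor sizes were not analysed here.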

Additional observations from a re-analysis of the deposited data

Results flagged for a closer look

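Within groups of 5 tumors, a value was picked out where its gap to the nearest other value, divided by the range of the group, exceeded Dixon's 95% critical value of 0.71. Chance picks out about 1 in 20 groups, and 4 of 80 groups were. Ccne1 was high in E1, with a log2(CPM + 1) of 4.62 beside 4.06 to 4.20 in the other E tumors. Mki67 was low in NE1, at 5.26 beside 6.41 to 6.86 in the other NE tumors. The macrophage or monocyte marker score of NE1 was 6.06, beside 7.29 to 7.63 in the other NE tumors, and its skeletal muscle markers were the lowest of all 10 tumors. The neutrophil marker score of E5 was 4.39, beside 1.25 to 1.92 in the other E tumors, and E5 had the fewest counted reads. The part of macrophages and neutrophils in the members' levels was not tested.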

How the results depend on the processing

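With both limits, of FDR and of fold change, no gene and no member was called under any of 19 alternatives of the fit, including DESeq2, edgeR's exact test, limma-trend on log2(FPKM + 1) and library size without TMM. Without the fold limit edgeR called 0 genes and DESeq2 2, Ide and Rbm12b1, of which 0 were members. The count of members with an unadjusted p of at most 0.05, 1 in the reported fit, was 2 with DESeq2 (beside 4.84% of all genes), 2 with limma-trend (4.76%), 2 with library size without TMM (4.68%), 2 with at least 10 counts in every tumor (5.31%), 2 with the muscle score as a covariate (7.69%), 6 without NE1 and NE4 together (8.5%), and 1 to 8 with each tumor left out in turn. The cause was not tested. The study speaks of matched pairs, but the labels do not say that equal replicate numbers denote them. Same-numbered tumors correlated by 0.04, -0.16, -0.09, -0.32 and 0.32 in their deviations, and only number 5 had its own partner as the best match, which is a hint from the data and not the design. With the replicate block 0 genes and 0 members were called, 1 member had an unadjusted p of at most 0.05, Gmnn in place of E2f8, beside 5.28% of all genes, and the G2/M median stayed at -0.08. Over 19 alternatives of the fit the median log2 fold change ran from -0.11 to -0.05 for G2/M, from -0.06 to 0.01 for G1/S and replication and from -0.08 to 0.03 for the G1 class, and the G2/M median was below the G1/S one in all 19. The G2/M level minus the G1/S and replication level stayed negative, from -0.13 to -0.06 with each tumor left out and -0.15 without NE1 and NE4. The median r within the G1/S and replication class was 0.28 on log2(FPKM + 1) and 0.52 without the GC and length trend, and that between the classes was 0.48 without the trend. Of 25 named members 16 kept their sign in all alternatives. With 5 tumors a group and 15045613 to 23092251 reads, the SE of members' log2 fold changes had a median of 0.08, and log2 fold changes of -0.30 (Ttk) and 0.21 (E2f8) had an adjusted p of 0.897 by edgeR.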
